A study of Mus musculus with 14 samples.

Results

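The mitochondrial carriers of the SLC25 family were followed in heart and hippocampus of mice of 2 ages. Genes were taken by their symbol, Slc25a and a number, without Slc25a20, and 43 of the 18194 genes measured were members. The 14 single-colour Affymetrix arrays came from mice of the C57BL/6 strain (C57/BL6 in some labels), with no treatment. Adult heart and adult hippocampus RNA was bought from a supplier and came from males of 10 weeks. Each adult tissue had 2 biological replicates, and each of these was run on 2 technical arrays that were averaged here. Pup heart and pup hippocampus came from animals of 7 days, whose sex was not given, with 3 biological replicates on 1 array each. The labels do not say that the adult replicates were separate animals, other labels name the 4 adult arrays of a tissue as 4 biological replicates, and the methods speak of a single male. P-values that involve adults therefore reflect only how far these samples varied, and part of that may be technical. A single fit estimated the spread from all groups, so this holds in part for p-values between pup tissues too. Age went together with the RNA source and its preparation (mRNA isolated from pup tissue, bought RNA for adults), so age and these cannot be told apart.

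Carriers of this family are small proteins that, with few exceptions, sit in the inner mitochondrial membrane, where each exchanges a particular pair of metabolites between the matrix and the cytosol. They bring ADP and phosphate to the ATP synthase and release ATP, move the aspartate, glutamate, malate and citrate of the shuttles that carry reducing power, and supply the matrix with nucleotides, cofactors, iron and glutathione. Heart muscle makes nearly all of its ATP in mitochondria, while the hippocampus also uses these carriers around the synthesis and breakdown of glutamate as a transmitter. Slc25a17 is a peroxisomal exception, and Slc25a46 lies in the outer membrane, where it takes part in mitochondrial shape.

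All values below are log2 expression values as deposited, so a difference of 1 is a 2-fold difference. Each gene stands for 1 probe set, the one with the highest mean over the arrays, and levels of different genes were not set against each other, because probes differ in how well they bind. Of the carriers, 21 had 1 probe set and 22 had several, with 91 probe sets in all. Mean levels of the carriers ran between 6.75 and 15.18, and 14 of the 43 lay below the median of all genes, 9.86. The technical arrays of an adult replicate differed by up to 3.39 for a carrier (median of the largest gaps 0.77), and by over 2 for Slc25a12, Slc25a13, Slc25a15, Slc25a32, Slc25a45 and Slc25a53, none of which passed a test. Differences were tested with limma in a single fit of the 10 biological samples, two-sided, with Benjamini-Hochberg adjustment over all genes and a threshold of 0.05. Because the groups shared their spread, leaving out a sample also moved the adjusted p-values of comparisons without it, at an unchanged difference. "Higher", "lower", "rose" and "fell" are used of a carrier only where it passed. Precision is limited by the few arrays, with a median standard error (SE) of a carrier's difference of 0.43 between adult tissues, 0.35 between pup tissues and 0.39 for age in either tissue.

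The tissues were checked against 8 heart muscle cell markers and 7 neuron markers, all measured. The mean level of the heart muscle list was 14.01 in adult heart and 8.78 in adult hippocampus. In pups it was 15.22 in heart and 10.23 in hippocampus, with single hippocampus replicates between 9.16 and 11.35. Cardiac actin, Actc1, was at 14.76, 12.49 and 10.31 in pup hippocampus replicates 1, 2 and 3, against 8.30 and 8.51 in adult hippocampus. Myh6 was at 11.68, 9.76 and 8.85 in these replicates, against 7.08 and 6.83. Tnnt2 was at 10.89, 8.73 and 7.67, against 7.97 and 7.69. Myl2, Myl3 and Tnni3 were also highest in replicate 1. Nppa (10.83, 11.39 and 10.15, against 10.86 and 11.24) and Ryr2 (9.9, 10.63 and 9.35, against 10.07 and 10.22) were highest in replicate 2. In replicate 1 neither lay above adult hippocampus. Heart muscle transcripts other than Nppa and Ryr2 were thus seen most in replicate 1, and in replicate 3 only some of the markers lay above adult hippocampus. The mean level of the neuron list was 10.43 in adult heart and 12.58 in adult hippocampus, and 10.61 in pup heart and 12.86 in pup hippocampus. Of its 7 markers, 4 were lower in adult heart (Nefl, Snap25, Slc17a7 and Stmn2) and 3 in pup heart (Nefl, Stmn2 and Snap25). The others did not pass. Among these, Rbfox3 (0.30 in adults and 0.11 in pups), Syt1 (0.24 in pups) and Gad1 (0.60 in pups) differed toward heart. The 18 hybridization control probe sets, which report RNA added at the bench, averaged 10.73 and 10.80 on the adult heart and adult hippocampus arrays, and 13.16 and 13.15 on those of pup heart and pup hippocampus. In whole tissue, fewer cells of a type and less RNA per cell cannot be told apart.

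Between the tissues, 6 carriers differed in the same direction at both ages. Slc25a4, the ADP/ATP carrier of heart and skeletal muscle, and Slc25a34, a carrier of unknown substrate, were higher in heart. The citrate carrier Slc25a1, the brain uncoupling-protein-like carrier Slc25a27 and the pyrimidine nucleotide carriers Slc25a33 and Slc25a36 were lower in heart. The differences of Slc25a27 and Slc25a36 were seen with 1 of their probe sets only. In adults 9 of the 43 carriers (20.9%) passed the test between heart and hippocampus, 3 higher and 6 lower, against 19.7% of all genes, 10.2% higher and 9.46% lower. In pups 9 carriers also passed, 3 higher and 6 lower, against 15.7% of all genes, 7.43% higher and 8.27% lower. The median difference of the carriers was -0.10 in adults and 0.16 in pups, and that of all genes was 0.03 in adults and 0.10 in pups. The shares of carriers that passed lay close to the background, and carriers passed in both directions. The samples of heart and hippocampus did not overlap for 29 carriers in adults, against 66.0% of all genes, and for 14 carriers in pups, against 31.7% of all genes. The sign of the heart minus hippocampus difference was the same at both ages for 29 of the 43 carriers, whether or not they passed. The shares of all genes that passed in the same direction at both ages, or kept their sign, were not counted. The joint counts of carriers therefore have no background beside them.

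**Figure D1:**
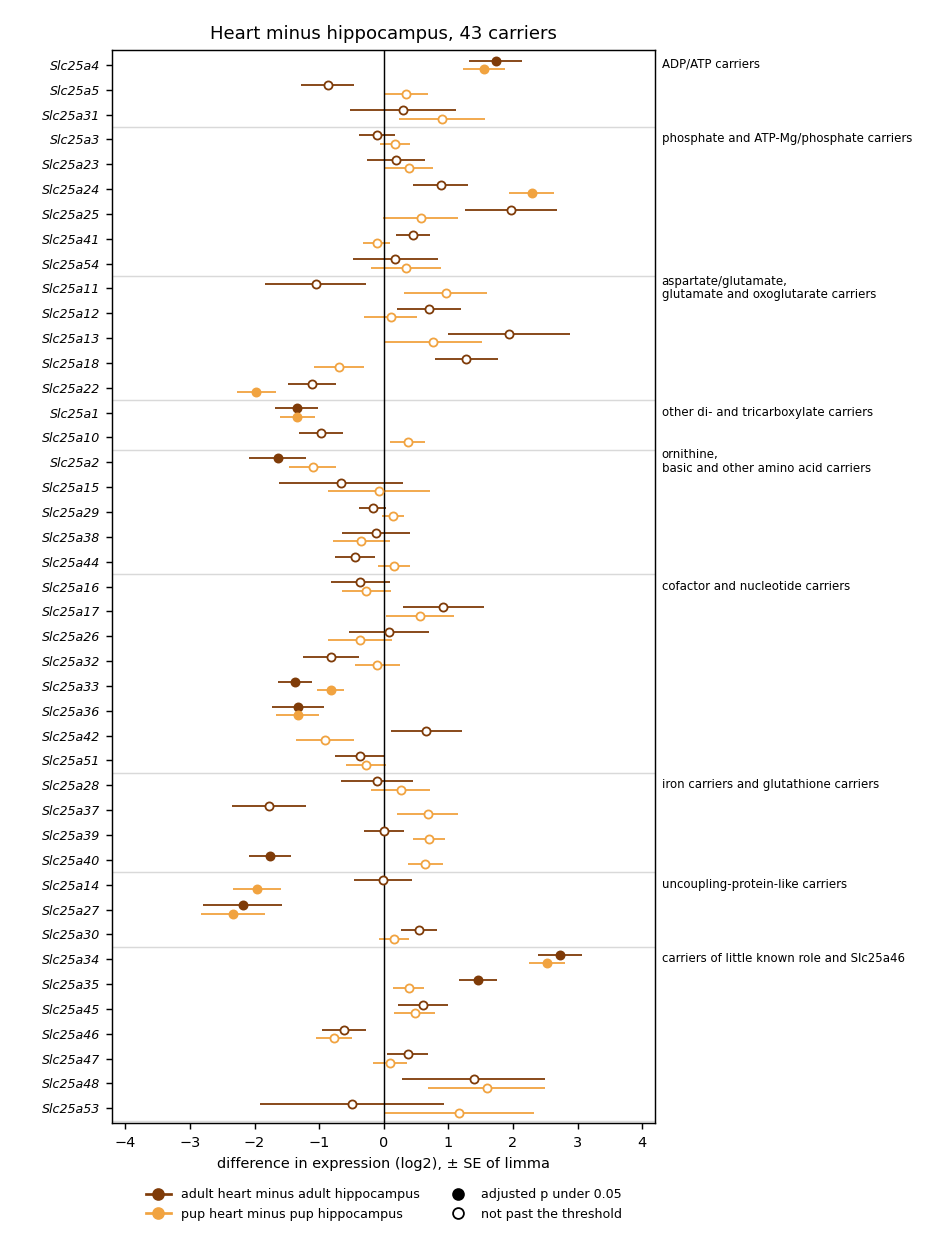
Heart minus hippocampus for each of the 43 carriers, grouped by role. The horizontal axis is the difference in log2 expression, the dark circles are adults, the light circles pups, the bars are ± SE of limma, and filled circles passed the threshold of 0.05. Points lie on both sides of 0 in most groups, and only Slc25a4 and Slc25a34 are filled to the right at both ages, at 1.55 to 2.73.

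With age, 5 carriers fell in both tissues and none of the 43 rose in both, and the share of all genes that did either was not counted. The carriers that fell were Slc25a3, the phosphate carrier of the ATP synthase, Slc25a4, Slc25a36, the outer membrane protein Slc25a46 and the NAD carrier Slc25a51. Each of the 5 had other probe sets, none of which gave this fall in both tissues, as described with each gene. In heart 10 carriers (23.3%) passed the test between adults and pups, 3 higher and 7 lower in adults, against 20.6% of all genes, 11.2% higher and 9.38% lower. In hippocampus 10 carriers passed, 4 higher and 6 lower in adults, against 16.1% of all genes, 8.63% higher and 7.44% lower. The median difference of the carriers was -0.19 in heart and 0.27 in hippocampus, and that of all genes was 0.09 in heart and 0.10 in hippocampus. The samples of adults and pups did not overlap for 22 carriers in heart, against 48.7% of all genes, and for 27 carriers in hippocampus, against 55.1%. The age comparisons use the same samples as the tissue comparisons, so a carrier's values in one are not independent of those in the other.

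**Figure D2:**
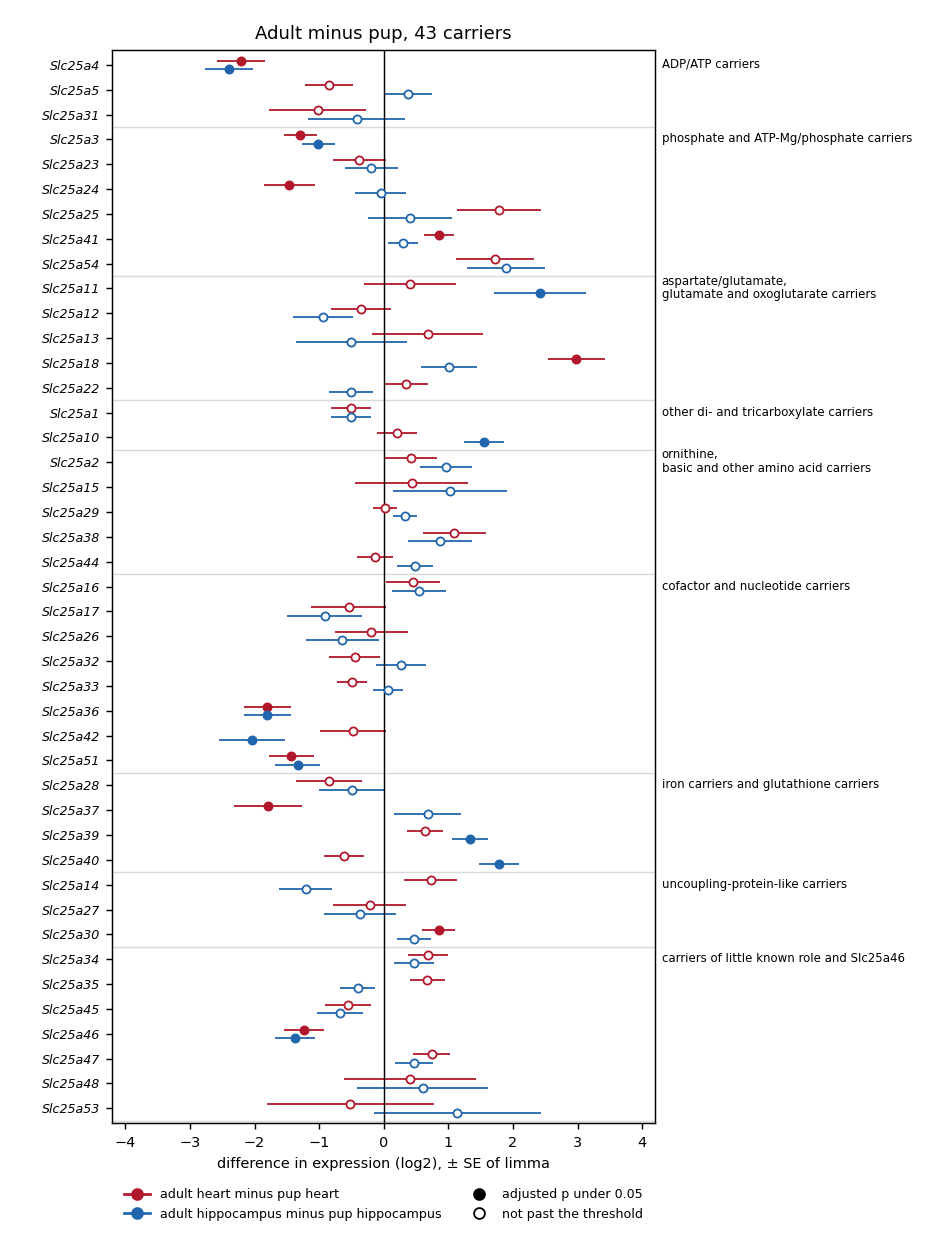
Adult minus pup for each of the 43 carriers, grouped by role. The horizontal axis is the difference in log2 expression, red circles are heart, blue circles hippocampus, the bars are ± SE of limma, and filled circles passed the threshold of 0.05. Filled points for Slc25a4, Slc25a3, Slc25a36, Slc25a51 and Slc25a46 lie left of 0 in both tissues, between -2.40 and -1.01.

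The interaction, which is adult minus pup in heart less adult minus pup in hippocampus, was past the threshold for 1 carrier, Slc25a40 (2.33% of the carriers, with a negative value, against 3.68% of all genes, 2.45% positive and 1.23% negative). The median interaction was -0.09 for the carriers and -0.04 for all genes. For the other 42 carriers a difference that passed in 1 tissue or at 1 age and not in the other was not shown to differ between them.

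The ADP/ATP carriers exchange ATP made in the matrix for ADP of the cytosol. Slc25a4 read 13.15 and 12.67 in adult heart, 11.10 and 11.25 in adult hippocampus, 15.41, 14.60 and 15.35 in pup heart, and 14.19, 13.41 and 13.12 in pup hippocampus. Every heart sample lay above every hippocampus sample of the same age, and every adult sample lay below every pup sample of the same tissue. The heart minus hippocampus difference was 1.73 in adults (SE 0.41, 95% interval 0.81 to 2.65, 3.32-fold, adjusted p = 0.0176) and 1.55 in pups (SE 0.33, 0.79 to 2.30, 2.92-fold, adjusted p = 0.0129). Slc25a4 fell in adults, with differences of -2.21 in heart (SE 0.37, 4.63-fold, adjusted p = 0.0047) and -2.40 in hippocampus (SE 0.37, 5.26-fold, adjusted p = 0.00457). The adult tissue call was lost without adult heart replicate 1 or either adult hippocampus replicate (1.49 to 1.97 over all samples left out, adjusted p up to 0.111), and the pup tissue call without pup hippocampus replicate 2 (adjusted p = 0.0513). Leaving out pup hippocampus replicate 1, where Actc1 was highest, gave a Slc25a4 tissue difference of 1.86 in pups (adjusted p = 0.00711) and an age difference of -2.09 in hippocampus (adjusted p = 0.013). Slc25a4 itself was highest in that replicate, and the part of heart muscle transcripts in the hippocampus values was not tested.

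The 4 probe sets of Slc25a4 did not give 1 answer with age. A second probe set read 14.17 and 13.63 in adult heart, 11.41 and 11.41 in adult hippocampus, 15.45, 15.12 and 15.26 in pup heart, and 12.71, 11.76 and 10.78 in pup hippocampus. A further one read 14.11 and 13.54, 11.36 and 11.56, 15.44, 15.08 and 15.40, and 12.02, 11.64 and 10.79 in the same groups. Both put heart above hippocampus by more than the chosen probe set did, by 2.49 and 2.37 in adults and by 3.53 and 3.82 in pups, all past the threshold. In hippocampus their age differences were -0.34 and -0.02, which did not pass, against -2.40 for the chosen one. The means of these 3 probe sets over the arrays lay close together, between 12.96 and 13.03, and the highest stood for the gene. In heart they differed with age with a difference of -1.38, which did not pass, and with a difference of -1.48, which did. The fourth, dim probe set of Slc25a4, with a mean of 8.36, read 7.42 and 7.79 in adult heart and 9.64 and 9.47 in adult hippocampus, a difference of -1.95 past the threshold, and was higher in adult than in pup hippocampus by 1.85.

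Slc25a5, the ADP/ATP carrier of most dividing tissues, is close to Slc25a4 in sequence, so probe sets of types that can match several transcripts may read both. Its chosen probe set read 13.66 and 14.38 in adult heart, 15.06 and 14.72 in adult hippocampus, 15.12, 14.22 and 15.27 in pup heart, and 14.87, 14.34 and 14.36 in pup hippocampus. Its difference did not pass in any comparison, with -0.87 between adult tissues (adjusted p = 0.173), 0.35 between pup tissues (adjusted p = 0.552), -0.85 with age in heart (adjusted p = 0.14) and 0.37 with age in hippocampus (adjusted p = 0.536). Without pup heart replicate 2 the Slc25a5 age difference in heart was -1.18 and passed (adjusted p = 0.0323). The other 7 probe sets told more: 6 of them were lower in adult heart than in pup heart, by values between -2.92 and -1.43, and 1 was higher, by 1.72. Between tissues, 4 of the other probe sets were higher in pup heart than in pup hippocampus, and 1 was higher in adult heart than in adult hippocampus. The interaction passed for 2 of them, with negative values. Over all 8 probe sets the pup tissue differences lay between 0.11 and 1.68, and the interactions between -2.14 and 1.26. Slc25a31, the ADP/ATP carrier of testis, read 6.77 and 6.42 in adult heart, 7.22 and 5.36 in adult hippocampus, 7.29, 7.10 and 8.44 in pup heart, and 7.33, 7.48 and 5.33 in pup hippocampus. The groups of Slc25a31 overlapped except for adult below pup heart, where the difference was -1.02 (SE 0.75, adjusted p = 0.378).

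**Figure D3:**
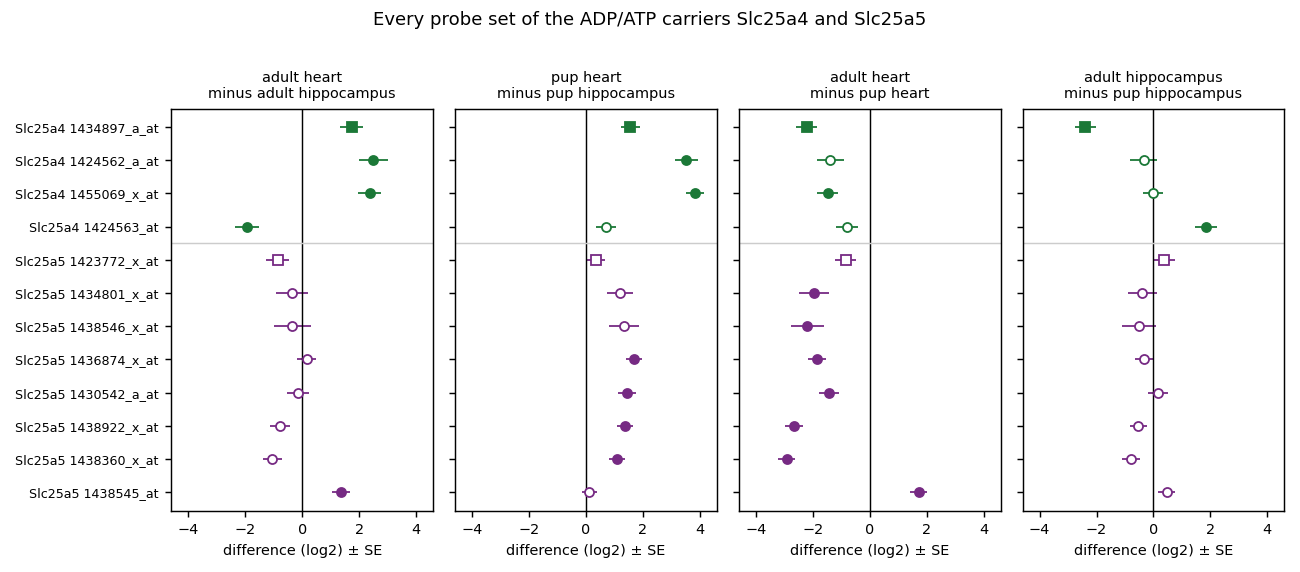
Every probe set of Slc25a4 (green) and Slc25a5 (purple) in 4 comparisons. The horizontal axes are differences in log2 expression, bars are ± SE of limma, squares mark the probe set that stood for the gene, and filled symbols passed the threshold of 0.05. The 3 bright probe sets of Slc25a4 lie right of 0 in both tissue panels, at 1.55 to 3.82, but spread over -2.40 to -0.02 with age in hippocampus.

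The phosphate carrier Slc25a3 supplies the matrix with the phosphate used by the ATP synthase. It read 14.39 and 13.91 in adult heart, 13.92 and 14.61 in adult hippocampus, 15.47, 15.49 and 15.36 in pup heart, and 15.27, 15.29 and 15.26 in pup hippocampus. All adult samples of Slc25a3 lay below all pup samples, while the tissues lay close together at each age. It fell in adults, with differences of -1.29 in heart (SE 0.26, adjusted p = 0.00944) and -1.01 in hippocampus (SE 0.26, adjusted p = 0.0303), and the tissue differences were -0.11 in adults (adjusted p = 0.831) and 0.17 in pups (adjusted p = 0.709). The heart call was lost without adult heart replicate 2 (adjusted p = 0.0814), and the hippocampus call without any 1 of the 3 pup hippocampus replicates or adult hippocampus replicate 1 (adjusted p up to 0.223). A second, dimmer probe set of Slc25a3 differed with age by 1.15 in heart and -0.53 in hippocampus, and neither passed.

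Slc25a23, Slc25a24 and Slc25a25 exchange ATP-Mg for phosphate under the control of calcium and so set the adenine nucleotide pool of the matrix. Slc25a24 read 9.0 and 9.09 in adult heart, 7.66 and 8.68 in adult hippocampus, 10.76, 10.36 and 10.40 in pup heart, and 7.73, 8.07 and 8.86 in pup hippocampus. Pup heart stood above every other group of this gene without overlap. Slc25a24 was higher in pup heart than in pup hippocampus by 2.29 (SE 0.35, 4.88-fold, adjusted p = 0.00211) and fell in adult heart against pup heart, with a difference of -1.46 (SE 0.39, 2.75-fold, adjusted p = 0.0291). The age call was lost without pup heart replicate 1 or either adult heart replicate (adjusted p up to 0.145), and the interaction of -1.41 did not pass (adjusted p = 0.196). The other probe set of Slc25a24 did not pass in either comparison, with 0.19 between pup tissues and 0.69 with age in heart. In the fibroblast marker list (5 of 5 measured) the mean level was 11.20 in adult heart and 14.62 in pup heart, and 11.34 in pup hippocampus. In the endothelium list (4 of 4) it was 10.60 in adult heart, 12.81 in pup heart and 10.84 in pup hippocampus. The part of these cell types in the carriers' heart values was not tested.

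Slc25a25 read 14.54 and 14.44 in adult heart, 12.30 and 12.74 in adult hippocampus, 13.34, 13.60 and 11.15 in pup heart, and 11.74, 12.69 and 11.94 in pup hippocampus. Adult heart lay above the other groups, by 1.97 over adult hippocampus (SE 0.71, adjusted p = 0.0845) and by 1.79 over pup heart (SE 0.65, adjusted p = 0.0824), and neither difference passed. Pup heart replicate 3 was low, and without it the Slc25a25 difference passed between adult tissues (adjusted p = 0.005) and between pup tissues (1.35, adjusted p = 0.0195). Without pup heart replicate 2 it passed with age in heart (2.25, adjusted p = 0.0393). A second probe set of Slc25a25 was higher in adult heart than in pup heart by 2.35 (SE 0.53, adjusted p = 0.013). Slc25a23 read 12.71 and 12.67 in adult heart, 12.06 and 12.94 in adult hippocampus, 13.53, 12.59 and 13.10 in pup heart, and 12.51, 13.32 and 12.23 in pup hippocampus. Its groups overlapped in each of the 4 comparisons, and its differences lay between -0.38 and 0.39. Slc25a41, a short relative that lacks the calcium-binding part, read 7.22 and 7.23 in adult heart, 6.86 and 6.70 in adult hippocampus, 6.54, 6.22 and 6.36 in pup heart, and 6.81, 6.36 and 6.28 in pup hippocampus. It was higher in adult than in pup heart by 0.85 (SE 0.23, adjusted p = 0.0327), a call lost without any of 5 samples, pup hippocampus replicate 2, pup heart replicates 2 and 3 and both adult hearts (adjusted p up to 0.141). The Slc25a41 call was also lost after median centring and range scaling of the arrays (0.66, adjusted p = 0.087) and after quantile normalization (0.72, adjusted p = 0.0651). The remaining member of this group, Slc25a54, was higher in every adult sample than in every pup sample of its tissue, by 1.72 in heart (adjusted p = 0.0755) and 1.89 in hippocampus (adjusted p = 0.0643), and passed in neither. Without pup hippocampus replicate 2 the Slc25a54 difference in heart passed (adjusted p = 0.0418), as did that in hippocampus without pup hippocampus replicate 1 (2.36, adjusted p = 0.0381) or pup heart replicate 2 (adjusted p = 0.0407).

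The glutamate carriers Slc25a18 and Slc25a22 bring glutamate into the matrix with a proton. Slc25a18 read 13.40 and 12.87 in adult heart, 11.58 and 12.13 in adult hippocampus, 10.00, 10.97 and 9.48 in pup heart, and 11.25, 10.83 and 10.45 in pup hippocampus. The adult heart samples stood apart above all others, and the lowest sample was in pup heart. The rise in adult heart against pup heart was the largest age difference of any carrier by the chosen probe sets, 2.98 (SE 0.44, 95% interval 1.99 to 3.98, 7.91-fold, adjusted p = 0.00278), and the call held with each sample left out (2.65 to 3.39, adjusted p up to 0.035). In hippocampus Slc25a18 differed with age by 1.01 (SE 0.44, adjusted p = 0.153). Between tissues it was 1.28 in adults (adjusted p = 0.0974) and -0.69 in pups (adjusted p = 0.297), and the interaction of 1.97 did not pass (SE 0.62, adjusted p = 0.121). Without pup heart replicate 2 the adult tissue difference (adjusted p = 0.0397) and the interaction of Slc25a18 (2.38, adjusted p = 0.0359) passed.

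The readings of Slc25a22 were 11.38 and 10.92 in adult heart, 12.03 and 12.49 in adult hippocampus, 11.34, 10.81 and 10.26 in pup heart, and 12.89, 12.55 and 12.87 in pup hippocampus. Hippocampus lay above heart in every sample at both ages. Slc25a22 was lower in pup heart than in pup hippocampus with a difference of -1.97 (SE 0.30, 3.91-fold, adjusted p = 0.00212), and the call held with each sample left out (adjusted p up to 0.0115). In adults the difference of -1.11 did not pass (SE 0.37, adjusted p = 0.0644), though it did without pup heart replicate 1 (adjusted p = 0.0401) or 3 (adjusted p = 0.0302). Between adult tissues the 2 glutamate carriers thus had opposite signs and in pups the same sign, and with all samples Slc25a18 passed only with age in heart and Slc25a22 only between pup tissues.

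The aspartate/glutamate carriers Slc25a12 and Slc25a13 and the oxoglutarate carrier Slc25a11 run the malate-aspartate shuttle, which brings the reducing power of cytosolic NADH into mitochondria. Slc25a12, the form of brain and muscle, read 12.84 and 14 in adult heart, 13.25 and 12.19 in adult hippocampus, 14.38, 13.59 and 13.34 in pup heart, and 13.54, 13.89 and 13.54 in pup hippocampus. Slc25a13, the form best known from liver, read 9.94 and 12.13 in adult heart, 10.11 and 8.08 in adult hippocampus, 9.54, 10.59 and 10.92 in pup heart, and 8.42, 10.33 and 10.02 in pup hippocampus. Neither passed in any comparison, and the spread was wide: the interval of the adult tissue difference of Slc25a13 was -0.17 to 4.06, and its technical arrays differed by up to 3.32. Slc25a11 read 11.32 and 12.37 in adult heart, 12.85 and 12.95 in adult hippocampus, 11.44, 11.35 and 11.53 in pup heart, and 9.74, 12.22 and 9.47 in pup hippocampus. It was higher in adult than in pup hippocampus by 2.42 (SE 0.71, 5.36-fold, adjusted p = 0.0491), close to the threshold. That Slc25a11 call was kept only without pup hippocampus replicate 2, the high sample, which gave 3.30 (adjusted p = 0.00456), and was lost without any 1 of the other 9 samples (adjusted p up to 0.188) and after median centring and range scaling (adjusted p = 0.0534) or quantile normalization (adjusted p = 0.0544). Without that replicate the pup tissue difference of Slc25a11, 1.83, also passed (adjusted p = 0.00883), as did the interaction, -2.88 (adjusted p = 0.0313).

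Slc25a1 exports citrate to the cytosol, where it feeds the synthesis of fatty acids and sterols. It read 10.98 and 10.89 in adult heart, 12.08 and 12.50 in adult hippocampus, 11.47, 11.93 and 10.92 in pup heart, and 12.96, 12.76 and 12.64 in pup hippocampus. All hippocampus samples of Slc25a1 lay above all heart samples. It was lower in heart with a difference of -1.35 in adults (SE 0.34, 2.56-fold, adjusted p = 0.022) and with a difference of -1.34 in pups (SE 0.27, 2.54-fold, adjusted p = 0.01). The pup call held with each sample left out (adjusted p up to 0.0421), and the adult call was lost without any 1 of the 4 adult samples (-1.56 to -1.14, adjusted p up to 0.136). With age Slc25a1 differed with a difference of -0.51 in heart (adjusted p = 0.28) and -0.50 in hippocampus (adjusted p = 0.3). The dicarboxylate carrier Slc25a10, which exchanges malate or succinate for phosphate, read 14.33 and 13.70 in adult heart, 15.28 and 14.71 in adult hippocampus, 13.86, 13.44 and 14.14 in pup heart, and 13.47, 13.28 and 13.59 in pup hippocampus. Slc25a10 rose in adult hippocampus against pup hippocampus by 1.55 (SE 0.31, 2.92-fold, adjusted p = 0.012), a call lost without adult hippocampus replicate 1 (adjusted p = 0.102), and differed by 0.20 with age in heart (adjusted p = 0.683). The other, dimmer probe set of Slc25a10 gave 0.52 with age in hippocampus and did not pass (adjusted p = 0.217).

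Of the 5 carriers of ornithine, basic and other amino acids, 1 passed a test. Slc25a2, an ornithine carrier, read 10.56 and 10.08 in adult heart, 11.79 and 12.13 in adult hippocampus, 9.88, 9.89 and 9.92 in pup heart, and 10.72, 11.87 and 10.42 in pup hippocampus. Heart lay below hippocampus at both ages without overlap. The difference of Slc25a2 passed in adults, -1.64 (SE 0.44, adjusted p = 0.0289), and not in pups, -1.10 (SE 0.36, adjusted p = 0.0698). The adult call was lost without any 1 of the 4 adult samples (-1.88 to -1.39, adjusted p up to 0.157). Without pup hippocampus replicate 3 the pup difference passed (-1.39, adjusted p = 0.0406), and without pup hippocampus replicate 2 the age difference of Slc25a2 in hippocampus passed (1.39, adjusted p = 0.0216). The other 4 were Slc25a15, the main ornithine carrier of the urea cycle, Slc25a29 for basic amino acids, the glycine carrier Slc25a38 and the branched-chain amino acid carrier Slc25a44. Over the 5 carriers the differences lay between -1.64 and -0.12 between adult tissues, -1.10 and 0.16 between pup tissues, -0.13 and 1.09 with age in heart, and 0.33 and 1.02 with age in hippocampus. Other probe sets passed for Slc25a29, at -1.11 between adult tissues and 1.63 with age in hippocampus (adjusted p = 0.013 and 0.021), and for Slc25a15, at 0.93 between pup tissues (adjusted p = 0.0479).

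Slc25a33 and Slc25a36 bring pyrimidine nucleotides into the matrix for mitochondrial DNA and RNA. Slc25a33 read 7.68 and 7.69 in adult heart, 9.26 and 8.85 in adult hippocampus, 8.39, 7.92 and 8.23 in pup heart, and 9.0, 8.89 and 9.09 in pup hippocampus. Hippocampus lay above heart in every sample, and the 2 adult heart samples were the lowest of all. Slc25a33 was lower in heart with a difference of -1.37 in adults (SE 0.26, 2.58-fold, adjusted p = 0.00633), a call held with each sample left out (adjusted p up to 0.0494). In pups it was lower with a difference of -0.82 (SE 0.21, 1.76-fold, adjusted p = 0.0282), a call lost without pup heart replicate 2 or any 1 of the pup hippocampus replicates (adjusted p up to 0.0889). Slc25a36 read 8.30 and 8.61 in adult heart, 9.72 and 9.84 in adult hippocampus, 10.35, 9.55 and 10.84 in pup heart, and 11.54, 11.28 and 11.92 in pup hippocampus. By its chosen probe set adult heart was lowest and pup hippocampus highest, with differences of -1.33 between the tissues at each age (SE 0.40 in adults and 0.33 in pups, adjusted p = 0.0478 and 0.0245) and of -1.80 with age in each tissue (SE 0.37 in both, adjusted p = 0.0102 in heart and 0.0134 in hippocampus).

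The Slc25a36 calls rested on that probe set. Its other 2 probe sets differed by 0.98 and 0.90 between adult tissues and with a difference of -0.15 and -0.06 with age in hippocampus, none past the threshold, and 1 of them was higher in adult than in pup heart by 1.23 (adjusted p = 0.027). The adult tissue call of Slc25a36 was also lost with 8 of the 10 samples left out in turn, all but pup heart replicates 2 and 3 (adjusted p up to 0.201). The pup tissue call was lost without pup heart replicate 1 or pup hippocampus replicate 1 or 3 (adjusted p up to 0.0875), the heart age call without adult heart replicate 1 (adjusted p = 0.0841), and the hippocampus age call without either adult hippocampus sample (adjusted p up to 0.0905).

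Among the cofactor carriers, Slc25a51 brings NAD into mitochondria and Slc25a42 brings coenzyme A. Slc25a51 read 9.32 and 9.21 in adult heart, 9.44 and 9.83 in adult hippocampus, 11.35, 10.18 and 10.57 in pup heart, and 10.96, 10.69 and 11.25 in pup hippocampus. Every adult sample lay below every pup sample. Slc25a51 fell in adults, with differences of -1.43 in heart (SE 0.35, 2.70-fold, adjusted p = 0.02) and -1.33 in hippocampus (SE 0.35, 2.52-fold, adjusted p = 0.0321). The heart call was lost without either adult heart sample (adjusted p up to 0.109), and the hippocampus call without any 1 of 7 samples, all but the 3 pup hearts (adjusted p up to 0.192). The other 2 probe sets of Slc25a51 were lower in adult than in pup heart, with differences of -1.56 and -0.69, and in hippocampus their differences of -1.05 and -0.39 did not pass. One of these was also lower in adult heart than in adult hippocampus (-1.22, adjusted p = 0.0314). Slc25a42 read 12.43 and 12.76 in adult heart, 11.86 and 12.03 in adult hippocampus, 13.23, 13.91 and 12.10 in pup heart, and 13.97, 13.41 and 14.57 in pup hippocampus. It fell in adult hippocampus, with a difference of -2.04 (SE 0.51, 4.13-fold, adjusted p = 0.0264), a call lost without either adult hippocampus sample or pup hippocampus replicate 1 or 3 (adjusted p up to 0.146). The other probe set of Slc25a42 gave -0.75 with age in hippocampus, which did not pass (adjusted p = 0.116), and was lower in adult than in pup heart, with a difference of -0.95 (adjusted p = 0.0482). It was also higher in heart than in hippocampus, by 1.10 in adults and 1.29 in pups (adjusted p = 0.0367 and 0.00942), where the chosen one gave 0.66 and -0.91, which did not pass. The remaining 4 of this group, Slc25a16, Slc25a17, the S-adenosylmethionine carrier Slc25a26 and the folate or FAD carrier Slc25a32, passed nowhere by their chosen probe sets with all samples. Slc25a26 passed between pup tissues without pup heart replicate 3 (-1.04, adjusted p = 0.023). The dimmest of 3 probe sets of Slc25a32 was higher in adult than in pup heart by 1.25 (adjusted p = 0.0125), where the chosen one gave -0.45.

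The mitoferrins Slc25a37 and Slc25a28 import iron for heme and iron-sulfur clusters, Slc25a37 above all in developing red cells. Slc25a37 read 8.57 and 8.50 in adult heart, 10.13 and 10.51 in adult hippocampus, 10.79, 11.13 and 9.06 in pup heart, and 9.82, 9.72 and 9.38 in pup hippocampus. Adult heart was lowest, and pup heart was split, with replicate 3 far below the others. Slc25a37 fell in adult heart against pup heart, with a difference of -1.79 (SE 0.52, 3.46-fold, adjusted p = 0.0409). This call was lost with any 1 of 9 samples left out (adjusted p up to 0.165) and kept only without pup heart replicate 3, which gave -2.42 (adjusted p = 0.002). Without that replicate Slc25a37 also passed between adult tissues (-1.78, adjusted p = 0.00236, against 0.0582 with all samples), between pup tissues (1.32, adjusted p = 0.00645, against 0.68 and 0.389) and as an interaction (-3.10, adjusted p = 0.00721, against -2.47 and 0.104). Without pup heart replicate 2 it passed between adult tissues (adjusted p = 0.0364). Of 6 erythroid markers 3 were measured, and their mean level was 10.15 in adult heart and 9.17 in pup heart, and 9.38 in adult hippocampus and 8.65 in pup hippocampus. Among them Alas2, the first heme enzyme of red cells, read 9.53 and 9.47 in adult heart, 9.88 and 8.88 in adult hippocampus, 11.20, 10.38 and 9.43 in pup heart, and 8.52, 8.64 and 8.03 in pup hippocampus. The other 2 were higher in adult than in pup heart, Hba-a1, a chain of haemoglobin, by 2.42 (adjusted p = 0.00582) and Slc4a1, the anion exchanger of the red cell membrane, by 1.37 (adjusted p = 0.0273), while Alas2 differed by -0.83 (adjusted p = 0.268). In pup heart replicate 3, where Slc25a37 was lowest of the pup hearts, Alas2 was also lowest, whereas Hba-a1 and Slc4a1 were lowest in replicate 1. The part of blood cells in these values was not tested. Slc25a28 read 8.62 and 8.41 in adult heart, 8.53 and 8.70 in adult hippocampus, 10.03, 9.39 and 8.66 in pup heart, and 8.62, 8.59 and 10.09 in pup hippocampus, and passed nowhere, with differences between -0.85 and 0.26.

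Slc25a39 and Slc25a40 are paralogues that carry glutathione into mitochondria. Slc25a40 read 8.72 and 9.19 in adult heart, 10.59 and 10.85 in adult hippocampus, 9.18, 9.91 and 9.64 in pup heart, and 8.61, 8.92 and 9.29 in pup hippocampus. The 2 adult hippocampus samples stood above all others. Slc25a40 was lower in adult heart than in adult hippocampus with a difference of -1.76 (SE 0.33, 3.40-fold, adjusted p = 0.0068), and the difference between pup tissues was 0.64 (SE 0.27, adjusted p = 0.162). It rose in adult hippocampus against pup hippocampus by 1.78 (SE 0.31, 3.44-fold, adjusted p = 0.0068), and the difference with age in heart was -0.62 (SE 0.31, adjusted p = 0.19). The interaction, -2.40 (SE 0.43, 95% interval -3.38 to -1.43), was the only one among the carriers to pass (adjusted p = 0.0204). It lay between -2.64 and -2.17 with each sample left out and was past the threshold in 5 of these 10 fits, but not without any 1 of the 4 adult samples or without pup hippocampus replicate 2 (adjusted p up to 0.0933). The adult tissue call was lost without adult heart replicate 1 or adult hippocampus replicate 2 (adjusted p up to 0.0558), and the hippocampus age call without adult hippocampus replicate 2 (adjusted p = 0.0561).

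Slc25a39 read 14.86 and 15.14 in adult heart, 14.94 and 15.05 in adult hippocampus, 14.22, 14.11 and 14.74 in pup heart, and 14.04, 13.56 and 13.37 in pup hippocampus. It rose in adult hippocampus by 1.33 (SE 0.28, 2.52-fold, adjusted p = 0.0154), a call lost without either adult hippocampus sample or pup hippocampus replicate 3 (adjusted p up to 0.0893), and the heart difference was 0.64. Its 5 probe sets passed in opposite directions in hippocampus. One read 11.27 and 11.73 in adult hippocampus and 14.13, 13.68 and 14.93 in pup hippocampus, a difference of -2.75 (adjusted p = 0.00488), and another differed with a difference of -1.24 (adjusted p = 0.0315). A further one read 15.06 and 14.99 in adult hippocampus and 13.18, 13.26 and 12.74 in pup hippocampus, a difference of 1.96 (adjusted p = 0.00751). No single direction with age can therefore be given for Slc25a39.

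**Figure D4:**
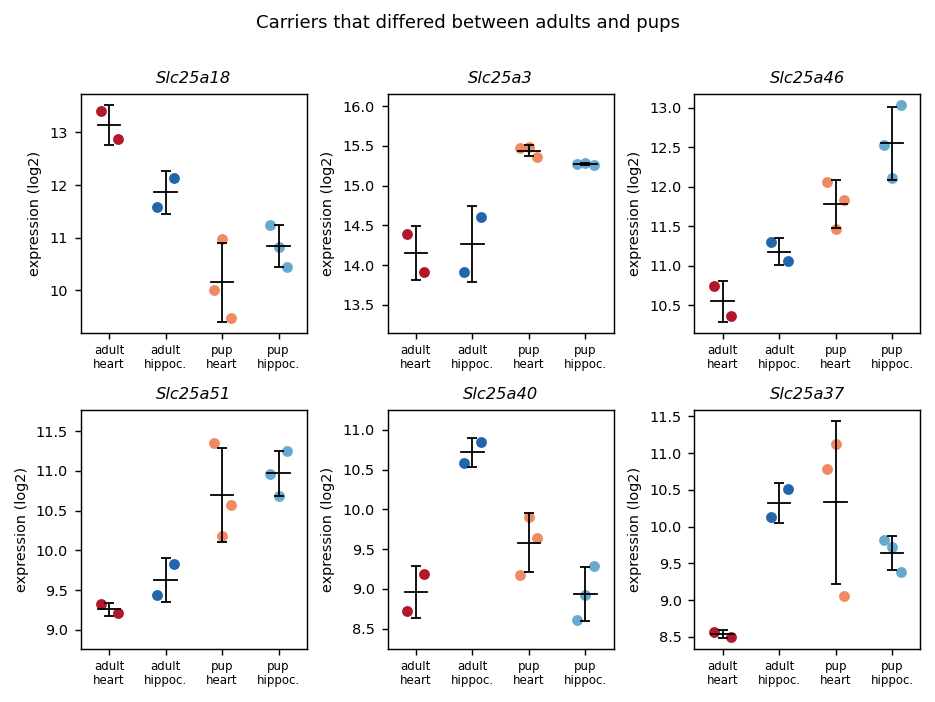
Expression of 6 carriers that differed between adults and pups. Each panel gives log2 expression (vertical axis, own range) of every biological sample in the 4 groups, with the mean and SD as lines. Slc25a18 is highest in adult heart, at 13.40 and 12.87, Slc25a40 in adult hippocampus, at 10.59 and 10.85, and in the panels of Slc25a3, Slc25a46 and Slc25a51 every adult sample lies below every pup sample of its tissue.

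Slc25a14, Slc25a27 and Slc25a30 resemble uncoupling proteins, and Slc25a14 and Slc25a27, also called UCP5 and UCP4, are known from brain. Slc25a27 read 9.62 and 8.66 in adult heart, 11.27 and 11.37 in adult hippocampus, 8.41, 9.07 and 10.61 in pup heart, and 11.67, 11.78 and 11.64 in pup hippocampus. Every hippocampus sample lay above every heart sample. Slc25a27 was lower in heart with a difference of -2.18 in adults (SE 0.61, 4.54-fold, adjusted p = 0.0358) and with a difference of -2.33 in pups (SE 0.50, 5.03-fold, adjusted p = 0.0126). The pup call held with each sample left out (-2.96 to -1.86, adjusted p up to 0.0451), and the adult call was lost without any 1 of 7 samples, all but the pup hearts (adjusted p up to 0.2). The other 3 probe sets of Slc25a27, all dimmer, differed between the tissues with a difference of -0.23 to 0.73, and none passed. Slc25a14 read 11.43 and 11.44 in adult heart, 11.24 and 11.66 in adult hippocampus, 10.12, 10.72 and 11.27 in pup heart, and 12.46, 12.18 and 13.34 in pup hippocampus. It was lower in pup heart than in pup hippocampus with a difference of -1.96 (SE 0.37, 3.88-fold, adjusted p = 0.0067), a call held with each sample left out (adjusted p up to 0.022), while the adult difference was -0.01 (SE 0.45, 95% interval -1.03 to 1.01). The Slc25a14 interaction of 1.94 did not pass (SE 0.58, adjusted p = 0.104). Slc25a30 read 9.67 and 9.55 in adult heart, 9.35 and 8.78 in adult hippocampus, 8.76, 8.77 and 8.73 in pup heart, and 8.30, 8.88 and 8.61 in pup hippocampus. It was higher in adult than in pup heart by 0.85 (SE 0.26, adjusted p = 0.0446), a call lost without any 1 of 7 samples, all but pup hippocampus replicate 1 and the adult hippocampus samples (adjusted p up to 0.2). The Slc25a30 call was also lost after median centring and range scaling (0.71, adjusted p = 0.0784) and quantile normalization, and its other 4 probe sets, all dimmer, gave -0.51 to 0.60 and did not pass.

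Slc25a34 and its neighbour in the family, Slc25a35, have no settled substrate. Slc25a34 read 11.53 and 11.39 in adult heart, 8.71 and 8.75 in adult hippocampus, 11.00, 11.20 and 10.12 in pup heart, and 8.24, 8.33 and 8.19 in pup hippocampus. All heart samples lay above all hippocampus samples. By the chosen probe sets the tissue difference was the largest of any carrier at both ages, 2.73 in adults (SE 0.34, 95% interval 1.97 to 3.5, 6.65-fold, adjusted p = 0.00104) and 2.52 in pups (SE 0.28, 1.89 to 3.14, 5.72-fold, adjusted p = 0.00031). In pups 2 other probe sets of Slc25a4 differed by more, 3.53 and 3.82. Both Slc25a34 calls held with each sample left out (adjusted p up to 0.0125 in adults and 0.00222 in pups). With age Slc25a34 differed by 0.69 in heart (adjusted p = 0.153) and 0.47 in hippocampus (adjusted p = 0.333). Slc25a35 read 9.36 and 9.40 in adult heart, 7.69 and 8.14 in adult hippocampus, 9.04, 8.75 and 8.34 in pup heart, and 8.43, 8.11 and 8.40 in pup hippocampus. It was higher in adult heart than in adult hippocampus by 1.46 (SE 0.29, 2.76-fold, adjusted p = 0.00871), a call lost without adult heart replicate 2 or adult hippocampus replicate 1 (adjusted p up to 0.0643), and its pup tissue difference was 0.39 (adjusted p = 0.328).

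**Figure D5:**
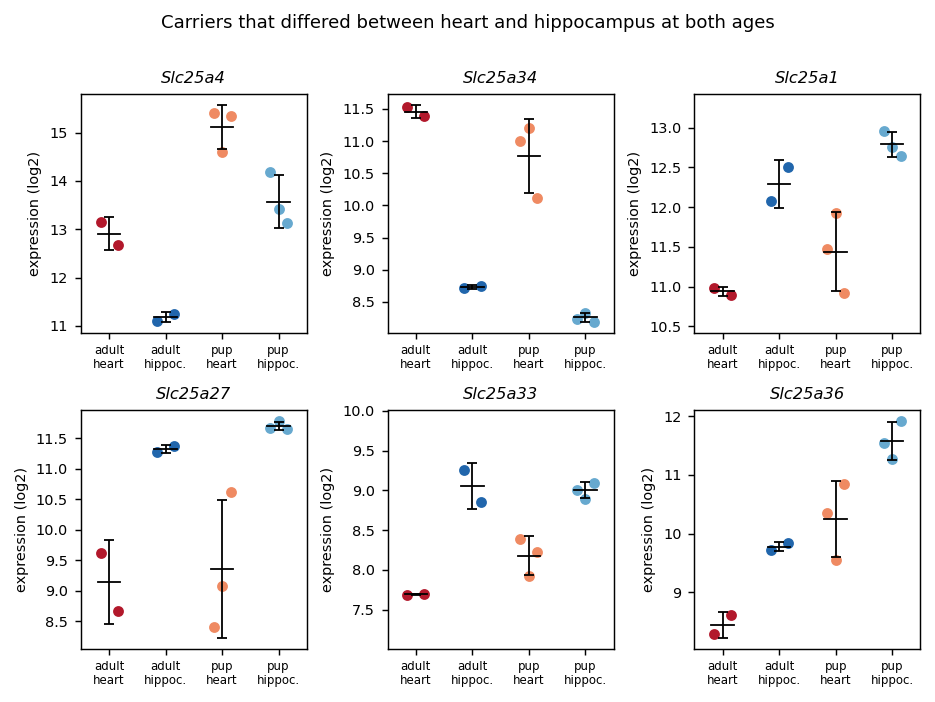
Expression of the 6 carriers that differed between heart and hippocampus at both ages. Each panel gives log2 expression (vertical axis, own range) of every biological sample in the 4 groups, with the mean and SD as lines. Heart lies above hippocampus of the same age in the panels of Slc25a4 and Slc25a34 and below it in the other 4, without overlap, with Slc25a34 at 10.12 to 11.53 in heart and 8.19 to 8.75 in hippocampus.

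Slc25a46 read 10.74 and 10.37 in adult heart, 11.30 and 11.06 in adult hippocampus, 12.06, 11.47 and 11.83 in pup heart, and 12.52, 12.11 and 13.03 in pup hippocampus. In each tissue all adult samples lay below all pup samples. Slc25a46 fell in adults, with differences of -1.23 in heart (SE 0.31, 2.35-fold, adjusted p = 0.024) and -1.38 in hippocampus (SE 0.31, 2.60-fold, adjusted p = 0.0194). The heart call was lost without either adult heart sample or pup heart replicate 1 (adjusted p up to 0.151), the hippocampus call without either adult hippocampus sample or pup hippocampus replicate 3 (adjusted p up to 0.116), and its other, dimmer probe set did not pass in either tissue (0.16 and 0.72). Slc25a45, Slc25a47, Slc25a48 and Slc25a53 did not pass in any comparison with all samples. Of these Slc25a48 and Slc25a53 were singled out after their values were seen, since 1 sample, pup heart replicate 3, stood far from the others of its group. Slc25a48 read 11.75 and 10.32 in adult heart, and 8.94, 9.82 and 13.13 in pup heart. Slc25a53 read 11.03 in both adult heart samples, and 10.06, 9.82 and 14.76 in pup heart. Without that replicate the Slc25a48 age difference in heart was 1.65 and passed (adjusted p = 0.049).

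The promoters of carriers that differed between the tissues at both ages were set beside each other, to show which letters lie upstream of genes that were higher and of genes that were lower in heart. The windows are RefSeq sequence of the build GRCm38.p6, 300 bases each on the minus strand, and run from upstream of the gene's start to just past it. Capitals mark an E-box (CACGTG) or an estrogen-related receptor core (AAGGTCA, capitals on its complement where it lies on the other strand). The genes higher in heart were Slc25a34 (chr4:141623785-141624084) and Slc25a4 (chr8:46211013-46211312).
Slc25a34: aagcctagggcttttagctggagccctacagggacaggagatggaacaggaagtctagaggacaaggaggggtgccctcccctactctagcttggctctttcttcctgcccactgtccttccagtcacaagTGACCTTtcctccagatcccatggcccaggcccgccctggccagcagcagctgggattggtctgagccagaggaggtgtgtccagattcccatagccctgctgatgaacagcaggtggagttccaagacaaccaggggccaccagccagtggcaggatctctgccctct
Slc25a4: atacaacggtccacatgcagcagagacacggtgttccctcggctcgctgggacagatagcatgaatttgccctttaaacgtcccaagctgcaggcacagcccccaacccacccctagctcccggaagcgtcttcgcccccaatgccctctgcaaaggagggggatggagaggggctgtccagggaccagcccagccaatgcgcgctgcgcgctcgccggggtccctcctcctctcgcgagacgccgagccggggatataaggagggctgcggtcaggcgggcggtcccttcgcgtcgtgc
The genes lower in heart were Slc25a1 (chr16:17928170-17928469), Slc25a33 (chr4:149774218-149774517) and Slc25a36 (chr9:97110992-97111291), and Slc25a27 is named only.
Slc25a1: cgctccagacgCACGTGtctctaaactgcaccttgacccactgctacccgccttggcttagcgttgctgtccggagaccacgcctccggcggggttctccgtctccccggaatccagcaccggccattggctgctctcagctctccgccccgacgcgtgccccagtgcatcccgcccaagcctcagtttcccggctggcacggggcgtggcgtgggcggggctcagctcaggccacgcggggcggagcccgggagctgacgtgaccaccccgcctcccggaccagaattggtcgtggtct
Slc25a33: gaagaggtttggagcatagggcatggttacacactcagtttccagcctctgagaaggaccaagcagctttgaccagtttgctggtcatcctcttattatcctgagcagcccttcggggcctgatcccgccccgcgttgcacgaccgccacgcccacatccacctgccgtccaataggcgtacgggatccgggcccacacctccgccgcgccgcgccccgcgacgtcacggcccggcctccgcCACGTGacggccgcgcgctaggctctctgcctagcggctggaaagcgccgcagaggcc
Slc25a36: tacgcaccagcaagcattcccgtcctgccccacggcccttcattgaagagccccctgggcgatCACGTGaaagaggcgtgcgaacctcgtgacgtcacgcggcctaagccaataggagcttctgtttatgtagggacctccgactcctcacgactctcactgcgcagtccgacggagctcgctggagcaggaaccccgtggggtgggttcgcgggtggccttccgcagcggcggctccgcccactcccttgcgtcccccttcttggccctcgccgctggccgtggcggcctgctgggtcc
The 3 windows of genes lower in heart each hold the E-box, and neither window of a gene higher in heart does. Over the family 33 carriers had a window, 42 windows in all, and 8 windows of 7 carriers held CACGTG, against 7.15% of all 32851 windows of this length. The carriers with it were Slc25a1, Slc25a13, Slc25a14, Slc25a15, Slc25a31, Slc25a33 and Slc25a36, of which Slc25a13, Slc25a15 and Slc25a31 passed in no comparison. Among carriers called between the tissues at a single age, Slc25a14, lower in pup heart, held it. Slc25a22, lower in pup heart, Slc25a40, lower in adult heart, and Slc25a24, higher in pup heart, had windows without it. AAGGTCA lay in 1 window, that of Slc25a34, against 4.72% of all windows, and the longer form TCAAGGTCA, which contains it, in none, against 0.423%. A match describes the letters only, and the choice of the motifs was made with the calls known.

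The remaining motifs were also searched on both strands. The GC box GGGCGG lay in 36 of the 42 windows, of 28 carriers, against 35.7% of all windows, and the ETS motif CCGGAAG in 6, against 8.86%. The NRF1 motif lay in 2 windows, of Slc25a3 and Slc25a31, against 4.6%. TATAAA lay in 1 window, of Slc25a18, against 13.6%, and the MEF2 motif CTAAAAATA in none, against 0.517%.

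Other genes that work with the carriers were counted from lists fixed by name. Each stood for its chosen probe set. Their other probe sets, samples left out and alternative settings were not examined as they were for the carriers. Of 16 citrate cycle enzymes 5 were higher and none lower in adult heart against adult hippocampus. In pup heart against pup hippocampus 9 were higher and 1 lower. Of all genes, 10.2% were higher and 9.46% lower between adult tissues, and 7.43% and 8.27% between pup tissues. With age the shares of all genes were 11.2% and 9.38% in heart, and 8.63% and 7.44% in hippocampus. These shares are the background of the lists below as well. The median differences of this list were 0.62 in adults and 1.42 in pups. Idh2, the mitochondrial NADP-linked isocitrate dehydrogenase, read 11.63 and 11.52 in adult heart, 8.14 and 7.99 in adult hippocampus, 15.20, 13.86 and 15.46 in pup heart, and 10.27, 9.36 and 10.02 in pup hippocampus. In adult heart 1 enzyme of the list was higher and 6 lower than in pup heart, with a median of -0.77, and in hippocampus 3 were lower, with a median of -0.49. Idh2 fell in adult heart, with a difference of -3.27 (adjusted p = 0.00235), while Dlst, a subunit of the oxoglutarate dehydrogenase, rose by 1.14 (adjusted p = 0.0161).

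Of the 6 enzymes of the malate-aspartate and glycerol phosphate shuttles, Mdh2, the mitochondrial malate dehydrogenase, was higher in heart by 1.26 in adults (adjusted p = 0.0365) and 2.35 in pups (adjusted p = 0.00061), and fell in adult heart, with a difference of -1.74 (adjusted p = 0.00696). Gpd1 rose in adult hippocampus by 1.39 (adjusted p = 0.0393), and the other 4 passed nowhere. Among 16 other transport proteins of the mitochondrial membranes, 3 fell in adult heart and 4 in adult hippocampus, and 1 rose in adult hippocampus. The voltage-dependent anion channels Vdac2 and Vdac3, pores of the outer membrane, fell in both tissues, with Vdac2 at -3.69 in heart and -2.21 in hippocampus (adjusted p = 0.000679 and 0.00633). Between pup tissues 3 of these proteins were higher in heart, with the pyruvate carrier subunit Mpc1 at 1.37 (adjusted p = 0.0439), and 4 were lower, with the sideroflexin Sfxn3 at -2.13 (adjusted p = 0.0014). Between adult tissues 1 of the 16, Sfxn5, was lower.

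Of the other genes of the SLC25 family with names of their own, 4 of 5 were measured, and 2 differences passed, Mtch1 at -1.66 between adult tissues (adjusted p = 0.0146) and Mtch2 at -1.76 with age in heart (adjusted p = 0.0133). Of 13 protein import genes, which bring the carriers into the membrane, 1 was higher and 1 lower in adult heart against adult hippocampus and 2 were higher in pup heart against pup hippocampus. With age 1 was higher and 2 lower in heart, and 2 were higher in hippocampus. Of 8 urea cycle, glutamate and ornithine enzymes, Otc, which uses the ornithine that carriers import, read 12.27 and 12.42 in adult heart, 7.90 and 7.15 in adult hippocampus, 9.51, 9.16 and 8.11 in pup heart, and 7.84, 7.90 and 7.67 in pup hippocampus. Otc was higher in adult heart than in adult hippocampus by 4.82 (adjusted p = 0.000273) and than in pup heart by 3.42 (adjusted p = 0.0012). Of 11 heme, iron-sulfur and one-carbon enzymes, 1 was higher and 1 lower between adult tissues, 3 higher between pup tissues, with Alas2 at 1.94 (adjusted p = 0.0164), 2 higher with age in heart, and none passed with age in hippocampus. Of 6 regulators of mitochondrial number, Ppargc1b fell in adults, with differences of -2.28 in heart (adjusted p = 0.00395) and -1.34 in hippocampus (adjusted p = 0.0385), Pprc1 rose in adult hippocampus by 1.05 (adjusted p = 0.0112), and Ppargc1a was higher in pup heart than in pup hippocampus by 1.59 (adjusted p = 0.00609).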

How the data were processed

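Expression was measured on single-colour Affymetrix mouse genome arrays from 5 μg of RNA per sample. The methods name amplified RNA for the bought adult tissues. For pup tissues they name isolated mRNA and do not mention amplification. Per the study's methods and the submitters' processing notes, the authors summarized probes by the upper decile with RMA 2.0, and the deposited values are log2 expression values between 2.67 and 16.0 for 45101 probe sets. The sources used here do not give background correction or detection calls. The methods also describe median centring and division by the 10th to 90th percentile range, which the deposited values do not show, so this scaling was an alternative. Values near the top of the scale compress differences, and no low value was set against a background level.

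Of the probe sets, 34958 named 1 gene on the platform annotation, 932 several and 9211 none, and 64 were controls. Of 34754 symbols looked up by Entrez identifier, 0 had changed. For each gene the probe set naming it alone with the highest mean over the 14 arrays was used. Technical arrays were averaged, and limma 3.58.1 (R 4.3.3, statmod 1.5.0) was fitted to 10 samples with 4 group means, 6 residual and 3.1 prior degrees of freedom and 5 contrasts. The script was tested on simulated data.

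Named with the value of each sample were the carriers past the threshold in at least 1 comparison and 6 sets of paralogues, and the rest were given by ranges. The members, the lists and the motifs were chosen with earlier results of these data known. Alternatives were other scalings, other probe set rules, a filter on low genes, eBayes with trend and robust settings, the methods' t-test, the replicate number as a block, the 4 adult arrays as 4 replicates, each technical array alone, and each sample left out.

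For same-numbered heart and hippocampus samples, the correlation of deviations from group means over all genes was 0.203, -0.092 and 0.002 in pups. Between pup samples of unlike number it lay between -0.159 and 0.168, so the value of replicate 1 was the highest. In adults it was -0.06 in both pairs, which with 2 replicates is the same value by construction. These few values cannot settle whether the numbers mark pairs, and they were not taken as pairs.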

Additional observations from a re-analysis of the deposited data

Results flagged for a closer look

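The age difference of the glutathione carrier Slc25a40 in heart and that in hippocampus differed by a test of the difference itself. It was -0.62 in heart and 1.78 in hippocampus, which gives an interaction of -2.40 (SE 0.43, limma adjusted p = 0.0204). The interaction passed for 1 of the 43 carriers (2.33%), against 3.68% of all genes. Its call was lost in 5 of the 10 fits with a sample left out, where it lay between -2.64 and -2.17. With the replicate number as a block, or with technical array 2 alone, it was lost as well. Adult and pup samples of Slc25a40 did not overlap in hippocampus and did overlap in heart. The age groups also differ in RNA source and preparation in both tissues, and their part in the interaction was not tested.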

How the results depend on the processing

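The number of carriers past the threshold moved with the setting. It was 9, 9, 10, 10 and 1 for adult tissues, pup tissues, age in heart, age in hippocampus and the interaction. The share of all genes past the threshold, 19.7%, 15.7%, 20.6%, 16.1% and 3.68% in these comparisons, moved with the setting as well. With the 4 adult arrays as 4 replicates it was 14 between adult tissues and 4 for the interaction, against 33.7% and 9.64% of all genes. With genes below the median level left out it was 3 between adult tissues, 6 with age in heart and 0 for the interaction. The mean over probe sets gave 5 with age in hippocampus, against 13.6% of all genes. The methods' t-test gave, at 0.05, 0 between adult tissues, 1 between pup tissues (Slc25a34), and 0 with age in either tissue. The shares of all genes were 0.0%, 5.24%, 0.368% with age in heart and 5.68% with age in hippocampus. At 0.001 it gave 0 carriers, and 0 of all genes, in each of these 4. There limma at an unadjusted p under 0.05 had 14, 13, 16 and 14 carriers. The share of all genes at that unadjusted threshold was not counted, so these counts have no background beside them. For the interaction the most variable probe set gave 2, as did leaving out probe sets that can match several transcripts. Technical array 2 alone, an alternative chosen after seeing the data, gave 0. Among all genes 5.27%, 3.5% and 3.18% passed in these 3 settings. The replicate block gave 8, 8, 7, 6 and 0, against 15.8%, 12.9%, 15.5%, 10.7% and 0.247% of all genes, and this pairing is by number only. Leaving out each sample gave counts of 3 to 12 between adult tissues, 7 to 12 between pup tissues, 3 to 9 with age in heart, 2 to 10 with age in hippocampus and 0 to 2 for the interaction. A lone adult sample was then assumed to vary like the other groups. The shares of all genes moved with the sample left out as well. With a pup sample left out they were 17% to 23.8% between adult tissues and 10.6% to 20.1% between pup tissues. In the same fits they were 17.1% to 23.2% with age in heart and 8.96% to 21.1% with age in hippocampus. For the interaction they were 1.62% to 5.51%.

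Where a carrier's difference passed with or without an alternative, its direction turned only with another choice of probe sets. Differences that passed in neither also turned, such as that of Slc25a53 with age in heart, 1.09 without pup heart replicate 3 against -0.52. Without probe sets that can match several transcripts, Slc25a4 was -1.95 between adult tissues, 1.85 with age in hippocampus and -2.65 as interaction, Slc25a5 was 1.36 between adult tissues and 1.72 with age in heart, Slc25a36 was 0.98 between adult and 0.95 between pup tissues, and Slc25a3 was 1.15 with age in heart. With the most variable probe set Slc25a3 was 1.15, Slc25a30 -0.47 and Slc25a39 -2.02 with age in heart, and Slc25a39 was -2.75 with age in hippocampus. With the mean over probe sets Slc25a36 was 0.19 between adult tissues and Slc25a39 was -0.17 with age in hippocampus. Of the 39 calls of a carrier in a comparison, 11 were kept with every sample left out, and 1, Slc25a34 between pup tissues, under every alternative run at 0.05, though not under the methods' t-test at 0.001. Median centring and range scaling moved the median age difference of all genes in heart to -0.04, against 0.09, moved the share of higher calls among all genes in heart to 44.9%, against 54.5%, changed no direction of a carrier that had passed, and ended 3 calls, Slc25a30 and Slc25a41 with age in heart and Slc25a11 with age in hippocampus, as did quantile normalization.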
